A study of Mus musculus with 18 samples.

Results

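Steady culture in Rcm was compared with steady culture in Scm, with no medium exchange in either group. MEFs are mouse embryonic fibroblasts, here a wild-type line. Scm is the complete medium made with the serum that left the cells sensitive to ferroptosis (S-FBS), and Rcm is the complete medium made with the serum that conferred resistance (R-FBS). The members are the 6 libraries whose titles name Rcm or Scm at 0 h, 3 in each group, of the 18 samples of the series. The other 12 libraries came from exchanged cultures, with 3 in each group: S-Rcm cells had been kept in Scm and spent their last 12 h or 24 h in Rcm, and R-Scm cells had been kept in Rcm and spent that time in Scm. Each group thus stands for a single serum and a single cell line. The labels do not say whether the libraries of a group came from separate cultures, so that the p-values measure the spread between these samples, which may be technical.

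Ferroptosis is a form of cell death driven by iron-dependent peroxidation of membrane phospholipids. The selenoprotein Gpx4 reduces lipid peroxides, and cystine import through Slc7a11 supplies the glutathione that Gpx4 consumes. Fibroblasts read serum through growth factor receptors, lipid-activated nuclear receptors and receptors of the TGF-beta and BMP family, and they answer with changes in matrix, contractile and growth-control genes. Sterol and interferon genes are given by counts, and the genes outside these lists are described in detail.

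Of 15381 genes tested, 354 were DEGs between Rcm and Scm, which is 2.3% of the genes (edgeR quasi-likelihood test, absolute log2 fold change above 0.58 and Benjamini-Hochberg adjusted p under 0.05). Of them, 257 were higher in Rcm (1.67% of the genes tested) and 97 were lower (0.631%). Interferon genes made up 74 of the 257 higher DEGs (28.8%), with a median log2 fold change of 2.28. Sterol genes made up 15 (5.84%), with a median of 0.92. These were 74 of 90 interferon genes tested and 15 of 35 sterol genes tested. Over all tested genes of the lists the medians were 2.19 and 0.71, with 90 and 34 positive values. DESeq2 on 18 libraries called 74 and 20. The remaining 168 higher DEGs (65.4%) had a median of 1.14. The 97 lower DEGs had a median of -0.92, and 0 of them belonged to the interferon or sterol list. Of the 168, 154 were protein-coding, as were 93 of the 97. The median over all genes tested was 0.01. Each count of DEGs in a gene list below stands beside these shares of all genes tested: 2.3% DEGs, 1.67% higher and 0.631% lower.

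Total counts per library ran from 14534906 to 18717939 in Scm and from 15037323 to 19787163 in Rcm. Rcm replicate 3 stood apart from the other Rcm libraries: on the axis of largest variance of the 6 libraries, which held 41.7% of it, the Scm libraries lay between -32.8 and -21.9, Rcm replicates 1 and 2 at 37.1 and 39.9, and Rcm replicate 3 at 2.82. Without it 574 genes were DEGs, 307 of them among the 354, and without any other library of these groups the number was 178 to 196. Of the 82 DEGs named below, 9 lost the call without Rcm replicate 3 (Nnt, Gm48878, Sqstm1, Sfrp2, Cxcl1, Ptx3, C1ra, Epha4 and Tbx15), and 35 to 37 did so without each of the other 5 libraries. The 35 that passed in every alternative analysis that gave them a value were Ddx60, Apod, Stra6, Gm4070, Pcdh17, Gvin1, Tafa5, Cckar, Hey1, Slc6a4, Egr3, Penk, Notum, Thbs1, Rnf213, Ccn2, Dynap, Loxl2, Adamts1, Adamts5, Mylk, Id2, Id4, Nkd2, Areg, Irs1, Ccnd2, Ddit3, Cp, Selenow, Angptl4, Cpt1a, Aldh1a1, C3 and Ntn4. The share of counts on mitochondrially encoded genes was 2.11% to 2.36% in Scm, 3.13% and 3.28% in Rcm replicates 1 and 2, and 1.96% in Rcm replicate 3. Where a gene is given with its 6 values below, the order is replicate 1, 2 and 3, in CPM, the count relative to the scaled library total, which is not divided by gene length and serves to compare libraries, not genes. Bulk RNA cannot tell fewer cells with a transcript from less of it in each cell.

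The cells carried fibroblast markers. Of 13 fibroblast and mesenchymal markers, 12 passed the filter on low counts. Their counts summed to 10893 to 11336 CPM in Scm and 12975 to 13655 CPM in Rcm. Lum, also in that list, held 3 counts or fewer in each of the 6 libraries. The sums were at most 12.0 CPM for epithelial, 1.25 CPM for endothelial, 18.1 CPM for macrophage and leukocyte, 7.14 CPM for adipocyte and 0.374 CPM for skeletal muscle markers. The defining markers Ptprc, Pecam1, Myod1 and Pou5f1 held 3 counts or fewer in every library of both groups. The 7 mural and smooth muscle markers summed to 780 to 865 CPM in Scm and 1040.1 to 1171 CPM in Rcm, with 0 DEGs among the 3 tested: the smooth muscle actin Acta2, which activated fibroblasts also express, had a log2 fold change of 0.48, Cspg4 -0.18 and Notch3 -0.13, while the mural markers Rgs5, Kcnj8 and Abcc9 were at 3 counts or fewer. The 10 cartilage and bone markers summed to 83.1 to 99.4 CPM in Scm and 65.9 to 77.8 CPM in Rcm, with 0 DEGs among the 2 tested (Sox9 -0.62, Runx2 -0.24) and Acan, Sp7, Ibsp, Bglap and Alpl at 3 counts or fewer. The part of these cells in the results below was not tested. The 11 neural and glial markers summed to 206 to 210 CPM in Scm and 142 to 158 CPM in Rcm. The neuronal tubulin Tubb3 fell by 1.05 on the log2 scale, and the tubulin-binding Stmn2 fell by 0.99. Sox2, Map2 and Nes of that list were not DEGs, with log2 fold changes of -0.67, 0.04 and 0.29. The 6 markers of that list tested had 4 negative and 2 positive values. Of 3 adipocyte markers tested, Fabp4 rose by 1.78, Cebpa fell by 0.92 and Pparg, at -0.30, was not a DEG. These markers are named after their values were seen. Sox10 and Elavl3 of the neural and glial list were at 3 counts or fewer.

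Matrix genes were among the largest and most abundant rises outside the interferon list. Col3a1, the fibrillar collagen chain of soft tissue (chr1:45311538-45349706, plus strand), was at 299.5, 279 and 296 CPM across the Scm libraries and 821, 844 and 809 CPM across the Rcm libraries. All Rcm libraries lay far above all Scm libraries, and the log2 fold change was 1.5 ± 0.34 (SE), with an edgeR adjusted p of 0.0271. This p rests on the spread of all 6 groups, and within the 6 libraries of steady culture alone it was 8.16e-05. The log2 fold change of Col3a1 stayed between 1.47 and 1.52 without each library in turn, but its edgeR adjusted p was 0.0805 to 0.113 except without Rcm replicate 3, where it was 0.0462. Thbs1, the secreted matrix protein thrombospondin 1 (chr2:118111876-118127133, plus strand), was at 812, 753 and 841 CPM across the Scm libraries and 1687, 1642 and 1496 CPM across the Rcm libraries. The groups did not overlap, as for 23.9% of all genes tested, and the log2 fold change was 1.0 ± 0.18 (SE) (edgeR adjusted p = 0.00412). Ogn, a small leucine-rich proteoglycan that binds collagen (chr13:49608046-49624501, plus strand), was at 37.2, 29.6 and 44.3 CPM across the Scm libraries and 247, 248 and 115 CPM across the Rcm libraries. Its rise of 2.46 ± 0.40 (SE) on the log2 scale (edgeR adjusted p = 0.00342) was smallest in Rcm replicate 3. That library still exceeded every Scm library, as the rule for the largest rises requires.

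Of 24 collagen chains and collagen-processing enzymes tested, 3 rose and 0 fell, beside 1.67% and 0.631% of all genes. Besides Col3a1 these were Col11a1, a minor fibrillar chain, with a log2 fold change of 1.6, and Loxl2, which cross-links collagen, with 1.29 and an edgeR adjusted p of 0.000462. Loxl2 shares 2348 bases at 100% identity with the annotated gene Gm21451, so that its count may be split between them. The list had 19 positive and 5 negative log2 fold changes and a median of 0.31, beside 0.01 for all genes. Of 30 matrix glycoproteins and proteoglycans, 4 rose and 0 fell: Thbs1, Ogn, the laminin chain Lama2 (1.67) and the fibulin Efemp1 (0.92). Their list had 23 positive values and a median of 0.29.

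Outside these lists, by the size of the change, Prelp, another leucine-rich proteoglycan, was at 1.02, 0.624 and 0.412 CPM across the Scm libraries and 4.24, 6.99 and 3.86 CPM across the Rcm libraries, with a fitted log2 fold change of 2.83 ± 0.54 (SE). Fbn2, the microfibril protein fibrillin 2, was at 1.5, 1.32 and 1.72 CPM across the Scm libraries and 8.29, 8.85 and 7.87 CPM across the Rcm libraries, with a fitted log2 fold change of 2.46 ± 0.49 (SE). Both genes were low in Scm. The rule for naming the largest rises required groups without overlap.

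Of 23 matrix proteases and inhibitors tested, 2 rose and 0 fell, beside 1.67% and 0.631% of all genes. Adamts5, a protease of the proteoglycan aggrecan, was at 7.49, 5.89 and 7.42 CPM across the Scm libraries and 30.1, 28 and 22.6 CPM across the Rcm libraries, and its neighbour Adamts1 was at 35.1, 30.4 and 36.0 CPM and 94.9, 93.5 and 86.7 CPM. Every Rcm library exceeded every Scm library for both, and 23.9% of all genes tested had no overlap between the groups. Their log2 fold changes were 1.95 ± 0.33 (SE) and 1.44 ± 0.19 (SE), with edgeR adjusted p of 0.00356 and 0.000462. The median of the list was 0.09.

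Of 20 contractile genes and SRF targets tested, 2 rose and 0 fell, beside 1.67% of all genes higher in Rcm. Mylk, the kinase of myosin light chain, rose by 1.77 and the LIM protein Fhl1 by 0.81 on the log2 scale, with a median of 0.13 for the list. Of 23 YAP targets 1 rose and 0 fell, Ccn2 (connective tissue growth factor). It was at 159, 168 and 161 CPM across the Scm libraries and 372, 387 and 371 CPM across the Rcm libraries, with a fitted log2 fold change of 1.21 ± 0.21 (SE) (edgeR adjusted p = 0.00342). The YAP list had 13 positive and 10 negative values and a median of 0.02.

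**Figure D1:**
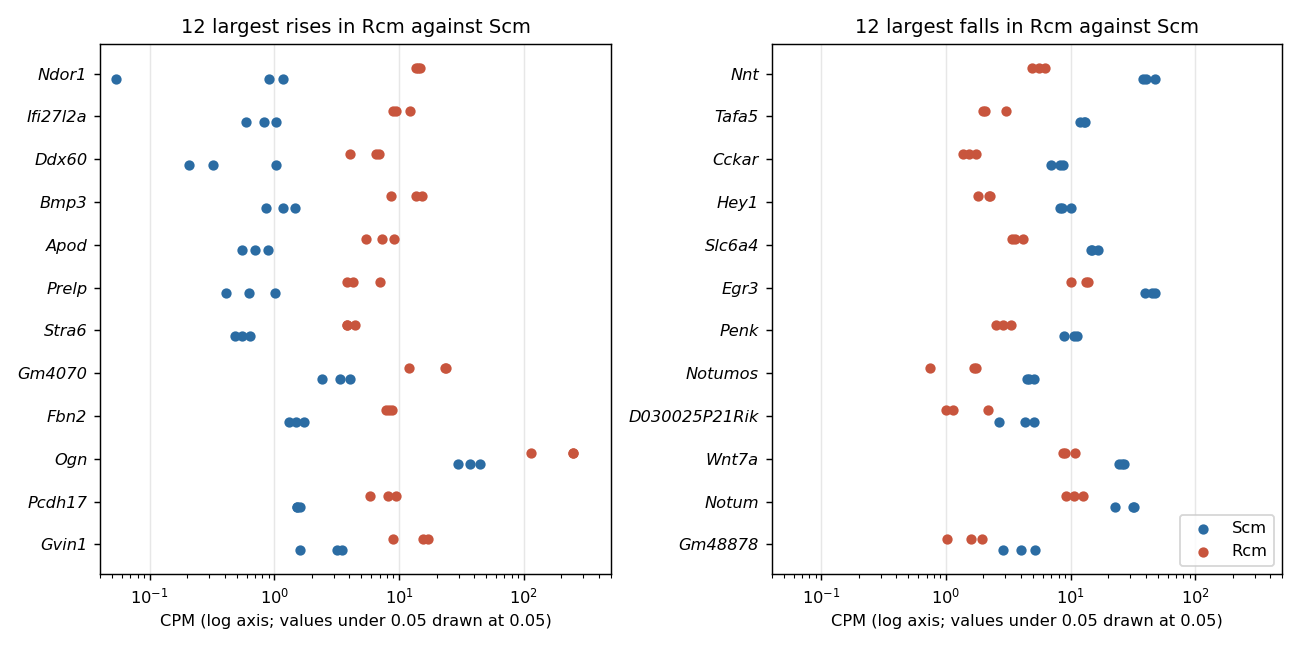
CPM on a log axis of the 12 largest rises and 12 largest falls in Rcm against Scm outside the sterol and interferon lists, with a point for each library (blue, 3 Scm libraries, and red, 3 Rcm libraries). The groups do not overlap for any of these genes, as the rule for naming them requires, and Ogn spans 29.6 to 248 CPM.

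The remaining large rises were of mixed function. Apod, a secreted lipocalin that carries lipids, was at 0.695, 0.555 and 0.893 CPM across the Scm libraries and 5.43, 9.18 and 7.31 CPM across the Rcm libraries, and Bmp3, a secreted ligand of the TGF-beta superfamily, at 0.856, 1.46 and 1.17 CPM across the Scm libraries and 15.3, 13.8 and 8.58 CPM across the Rcm libraries. Rcm replicate 3 was the lowest Rcm library for Bmp3 and lay between the other Rcm libraries for Apod. Their log2 fold changes were 3.34 ± 0.58 (SE) and 3.44 ± 0.70 (SE), with edgeR adjusted p of 0.00415 and 0.0134. Pcdh17, a protocadherin adhesion molecule, was at 1.6, 1.53 and 1.51 CPM across the Scm libraries and 9.42, 8.18 and 5.84 CPM across the Rcm libraries (log2 fold change 2.33 ± 0.26 (SE), edgeR adjusted p = 0.000133).

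Several genes of the largest rises are known to be induced by interferon though they stood outside the interferon list. Ddx60, an RNA helicase, rose by 3.49, Ifi27l2a by 3.66, and the very large GTPase Gvin1 by 2.32 on the log2 scale. The transcript of Gvin1 is 100% identical over 9005 bases to Gm4070, which rose by 2.58, so that reads of these genes cannot be told apart. Rnf213, a ubiquitin ligase, was at 187, 140.3 and 166 CPM across the Scm libraries and 439.7, 429.9 and 366 CPM across the Rcm libraries (log2 fold change 1.32 ± 0.23 (SE)).

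The falls included genes of BMP signalling. In this pathway BMP ligands activate receptors that phosphorylate SMAD1, SMAD5 and SMAD9, which bind GC-rich sites and induce the Id genes, whose products block bHLH transcription factors. Of 25 genes of the TGF-beta and BMP list tested, 0 rose and 5 fell, beside 1.67% and 0.631% of all genes. The 5 were Id1, Id2, Id3, Id4 and Smad9. The list had 18 negative and 7 positive values, with a median of -0.16. Bmp3, which rose by 3.44 on the log2 scale, stood outside that list, and whether it activates or opposes this pathway was not tested.

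The promoters of Id2, Id4 and Smad9 are shown since these members fell together and each holds a GC-rich GGCGCC, the letters reported for BMP-activated SMADs. GGCGCC was searched on both strands, where it reads alike, in the 250 bases before the annotated start (RefSeq, GRCm38.p6), and is in capitals. It was found in 3 of the 4 promoters present for these 5 genes, and in 9.59% of 32851 promoters of that length. The GC content of the 4 windows ran from 62.8% to 75.6%, and that of all promoters was not measured. The part of GC content in these matches was not tested. Only the DEGs of the list were searched. Id1 was not matched.
Id2 (chr12:25096093-25096342, minus strand): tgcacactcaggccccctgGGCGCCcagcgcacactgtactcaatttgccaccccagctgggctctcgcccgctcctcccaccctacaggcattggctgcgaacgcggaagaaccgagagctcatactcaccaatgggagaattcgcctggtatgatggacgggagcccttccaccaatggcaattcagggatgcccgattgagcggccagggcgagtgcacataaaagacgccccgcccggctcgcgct
Id4 (chr13:48260866-48261115, plus strand): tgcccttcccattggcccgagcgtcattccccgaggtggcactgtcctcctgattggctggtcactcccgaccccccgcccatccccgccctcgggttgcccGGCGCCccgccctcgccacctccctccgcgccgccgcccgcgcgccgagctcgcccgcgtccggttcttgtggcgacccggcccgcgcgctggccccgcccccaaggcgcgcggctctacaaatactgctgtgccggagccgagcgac
Smad9 (chr3:54755332-54755581, plus strand): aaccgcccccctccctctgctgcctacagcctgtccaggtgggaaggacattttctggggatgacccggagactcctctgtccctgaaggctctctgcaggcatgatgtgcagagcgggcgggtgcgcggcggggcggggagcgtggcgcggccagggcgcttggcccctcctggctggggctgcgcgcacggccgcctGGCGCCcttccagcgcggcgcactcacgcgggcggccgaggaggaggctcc
The match lies 231 bases before the start in Id2, 148 in Id4 and 51 in Smad9, and the Id3 window has none.

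Id3 was at 365, 407 and 363 CPM across the Scm libraries and 174, 186 and 242 CPM across the Rcm libraries, and Id1 at 248, 274 and 252 CPM across the Scm libraries and 117, 132 and 170.2 CPM across the Rcm libraries. For both, Rcm replicate 3 was the highest Rcm library and still below every Scm library. Their log2 fold changes were -0.92 ± 0.17 (SE) and -0.88 ± 0.23 (SE), with edgeR adjusted p of 0.00738 and 0.0473. Id2 was at 83.3, 91.2 and 93.1 CPM across the Scm libraries and 49.7, 52.1 and 45.8 CPM across the Rcm libraries, and Id4 at 20.2, 22 and 21.4 CPM across the Scm libraries and 9.85, 10.8 and 7.77 CPM across the Rcm libraries. The log2 fold changes of Id2 and Id4 were -0.86 ± 0.13 (SE) and -1.16 ± 0.14 (SE), with edgeR adjusted p of 0.00123 and 0.000213. Smad9, the receptor-activated SMAD, was low in both groups, at 2.75 ± 0.127 CPM for Scm and 1.25 ± 0.155 CPM for Rcm (SD, n = 3), with a log2 fold change of -1.13. The call of Id1 was lost in 8 of 18 alternative analyses and that of Smad9 in 9, while Id2 and Id4 passed in all 18.

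Hey1, a Notch-induced repressor, was at 8.29, 9.98 and 8.45 CPM across the Scm libraries and 1.81, 2.20 and 2.24 CPM across the Rcm libraries, with a fitted log2 fold change of -2.09 ± 0.23 (SE) (edgeR adjusted p = 0.000117). Of 15 genes of the hedgehog and Notch list it was the DEG. Notum, a secreted enzyme that inactivates Wnt ligands, was at 31.6, 32.2 and 22.7 CPM across the Scm libraries and 10.6, 9.25 and 12.6 CPM across the Rcm libraries, and the ligand Wnt7a at 24.6, 27.0 and 25.6 CPM across the Scm libraries and 8.67, 9.05 and 10.9 CPM across the Rcm libraries. Their log2 fold changes were -1.41 and -1.43, and every Rcm library was below every Scm library, as the rule for the largest falls requires. The antisense gene Notumos overlaps 708 exonic bases of Notum and changed by -1.77, and without knowledge of strand in the counting their reads cannot be told apart. Of 20 genes of the Wnt list tested, 4 were DEGs, beside 2.3% of all genes: 2 rose (Wnt9a 1.07, Nkd2 0.73) and 2 fell (Notum and the Wnt-binding Sfrp2, which was at most 1.02 CPM in these libraries). The median of that list, which does not hold Wnt7a, was 0.23.

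Immediate early genes, which serum induces within minutes, had 1 DEG of 19 tested, beside 2.3% of all genes. Egr3 was at 47.1, 45.3 and 39.5 CPM across the Scm libraries and 13.9, 13.2 and 10.2 CPM across the Rcm libraries, with a fitted log2 fold change of -1.83 ± 0.30 (SE) (edgeR adjusted p = 0.0027). The list had 15 negative and 4 positive values and a median of -0.27. Of 13 ERK feedback genes, the transcription factor Etv4 (-0.64) and the phosphatase Dusp4 (-0.76) fell and the inhibitor Spry1 (1.64) rose, with a median of -0.19. The growth factors were divided: Areg, a ligand of the EGF receptor, fell by 1.22 on the log2 scale and Kitl, the ligand of Kit, rose by 0.98, with a median of 0.01 over 26 genes. Spry1 and Irs1 overlap annotated genes on the opposite strand over 24.4% and 30.9% of their exonic bases, as Ccn2 does over 23.2%. The insulin receptor substrate Irs1 (0.78) and the G1 cyclin Ccnd2 (1.01) were each the DEG of their list, FOXO targets (16 tested) and G1 regulators (12 tested).

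**Figure D2:**
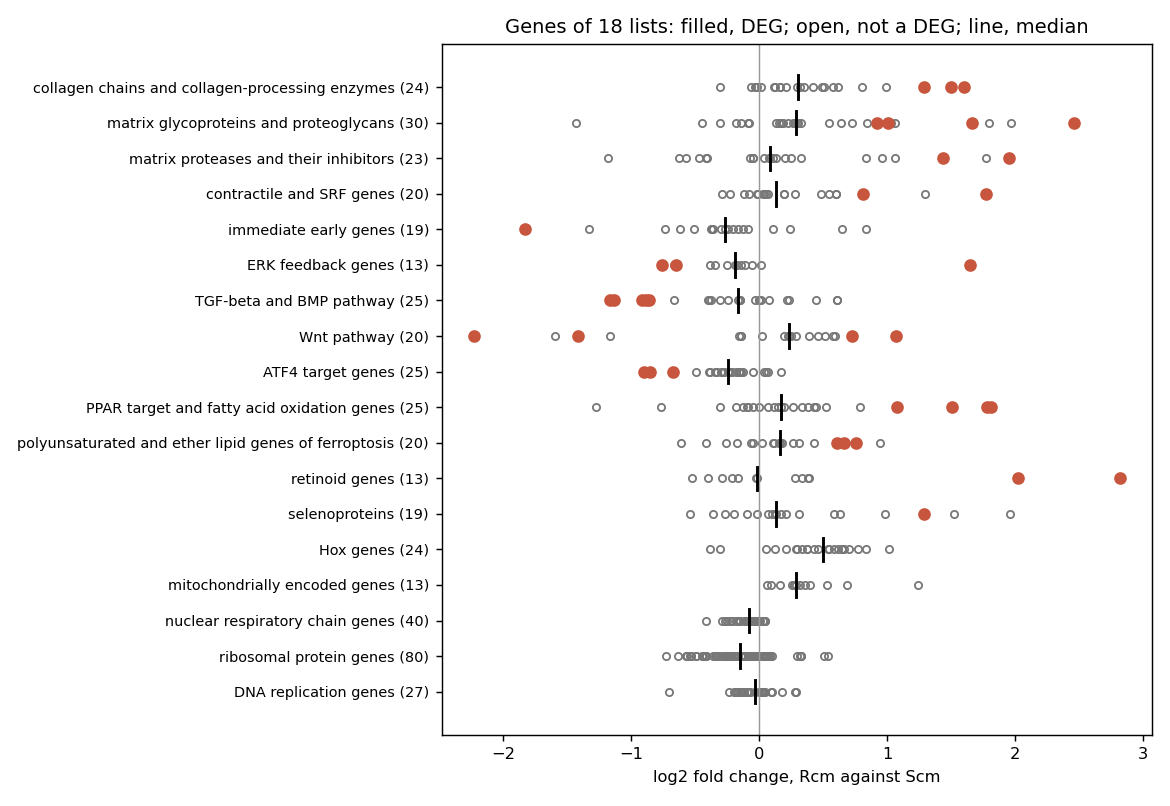
Log2 fold change in Rcm against Scm of each tested gene in 18 gene lists, with the number tested in brackets. Filled points are DEGs, open points are not, and black lines are list medians, which run from -0.27 for immediate early genes to 0.50 for Hox genes, where no gene was a DEG.

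Tafa5 and Slc6a4 were among the largest falls. Tafa5, a secreted chemokine-like protein, was at 13.2, 12.0 and 12.7 CPM across the Scm libraries and 2.0, 2.06 and 3.05 CPM across the Rcm libraries (log2 fold change -2.40 ± 0.18 (SE), edgeR adjusted p = 4.02e-06). Slc6a4, the serotonin transporter, was at 14.7, 16.6 and 14.6 CPM across the Scm libraries and 3.37, 3.59 and 4.11 CPM across the Rcm libraries (log2 fold change -2.05 ± 0.16 (SE), edgeR adjusted p = 4.18e-06). For both genes every Scm library lay well above every Rcm library, and groups without overlap were required to name them. Cckar, a receptor of cholecystokinin, changed by -2.37, and Penk, the precursor of enkephalins, by -1.81. Of 30 axon guidance genes, the semaphorin Sema7a (-0.96), its receptor family member Plxna4 (-1.54) and the ephrin receptor Epha4 (-1.39) fell. The netrin Ntn4 (1.12) rose, and the list median was -0.09. Epha4 had an edgeR adjusted p of 0.0499. Its call was lost in 12 of 18 alternatives, that of Plxna4 in 7 and that of Sema7a in 6, while Ntn4 passed in all 18. Epha4 and Plxna4 were low, at a mean of 2.69 and 1.72 CPM in Scm. Of 29 patterning transcription factors, Dlx2 (-0.79) and Six2 (-0.96) fell and Tbx15 (0.77) rose. The cadherin Cdh3 (1.5) was the DEG of 25 adhesion genes. D030025P21Rik, an antisense transcript, and Gm48878, whose coding status the annotation leaves undecided, at a mean of 4.02 and 3.99 CPM in Scm, completed the 12 largest falls, at -1.45 and -1.41, and 764 exonic bases of D030025P21Rik lie opposite Ltbp2.

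Odc1 and Sqstm1 were among the 5 most abundant lower DEGs. Odc1, the rate-limiting enzyme of polyamine synthesis, was at 825, 844 and 857 CPM across the Scm libraries and 426, 428 and 554 CPM across the Rcm libraries, with a fitted log2 fold change of -0.84 ± 0.19 (SE) (edgeR adjusted p = 0.0247). Annotated pseudogenes share up to 1398 bases with Odc1 at 95% identity or more, so that its count is uncertain to that extent. Sqstm1, the autophagy receptor p62, was at 439, 448 and 407 CPM across the Scm libraries and 305, 314 and 242 CPM across the Rcm libraries, just past the fold threshold at -0.59 ± 0.12 (SE). It was the DEG of 25 lysosome and autophagy genes, and leaving out Scm replicate 1, Scm replicate 2 or Rcm replicate 3 took it back to -0.58, -0.56 or -0.49. Dynap, a membrane protein that binds dynactin, was at 414, 430.3 and 426 CPM across the Scm libraries and 195, 190.1 and 165 CPM across the Rcm libraries, with a fitted log2 fold change of -1.21 ± 0.10 (SE) (edgeR adjusted p = 6.9e-06).

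ATF4, the transcription factor of amino acid shortage, had 25 targets tested, of which 3 fell and 0 rose, beside 0.631% and 1.67% of all genes. Ddit3 (CHOP), a transcription factor of the stress response, was at 48.7, 51.6 and 47.5 CPM across the Scm libraries and 23.1, 24.6 and 31.4 CPM across the Rcm libraries, with a fitted log2 fold change of -0.90 ± 0.13 (SE) (edgeR adjusted p = 0.000913). Chac1, which degrades glutathione, was at 30.3, 40.4 and 33.9 CPM across the Scm libraries and 16.9, 20.2 and 20.8 CPM across the Rcm libraries, with a fitted log2 fold change of -0.85 ± 0.20 (SE) (edgeR adjusted p = 0.029). Atf5, another target, was at 281, 285 and 269.6 CPM across the Scm libraries and 155, 153 and 217 CPM across the Rcm libraries, with a fitted log2 fold change of -0.67 ± 0.17 (SE) (edgeR adjusted p = 0.047), and its call was lost in 8 of 18 alternatives. The list had 21 negative and 4 positive values and a median of -0.24. The 250 bases before the start of Chac1 are shown since they hold the letters of an ATF4 composite element, searched as TGATGCAA on both strands. They were found in 0.791% of 32851 promoters, and not in the windows of Ddit3 or Atf5.
Chac1 (chr2:119350992-119351241, plus strand): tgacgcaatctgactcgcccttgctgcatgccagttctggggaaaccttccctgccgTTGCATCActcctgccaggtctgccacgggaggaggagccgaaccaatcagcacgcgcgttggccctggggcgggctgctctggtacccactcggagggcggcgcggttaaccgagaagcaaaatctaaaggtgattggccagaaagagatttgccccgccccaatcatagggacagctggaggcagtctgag
The capitals mark the match, which begins 193 bases before the start.

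Lipid genes outside sterol synthesis rose in part. Of 25 PPAR targets and fatty acid oxidation genes, 4 rose and 0 fell, beside 1.67% and 0.631% of all genes, with a median of 0.17. Angptl4, a secreted inhibitor of lipoprotein lipase (chr17:33773750-33781830, minus strand), was at 8.83, 8.32 and 7.63 CPM across the Scm libraries and 30.8, 27.0 and 29.2 CPM across the Rcm libraries, with a fitted log2 fold change of 1.81 ± 0.19 (SE) (edgeR adjusted p = 7e-05). Cpt1a, which commits fatty acids to mitochondrial oxidation (chr19:3322334-3385733, plus strand), was at 64.3, 61.8 and 67.3 CPM across the Scm libraries and 137, 134 and 137 CPM across the Rcm libraries, with a fitted log2 fold change of 1.08 ± 0.14 (SE) (edgeR adjusted p = 0.000462). Every Rcm library exceeded every Scm library for both genes, and 23.9% of all genes tested had no overlap between the groups. Lpl, lipoprotein lipase itself (1.51), and the fatty acid carrier Fabp4 (1.78) were low, at most 5.72 and 2.46 CPM in a library.

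Of 20 genes in the list of polyunsaturated and ether lipid genes of ferroptosis, 3 rose and 0 fell, with a median of 0.16. The 3 were Fads1, Fads2 and Acsl3, of which only Fads1 and Fads2 are desaturases. Fads1 and Fads2, the desaturases that make polyunsaturated fatty acids, are neighbours on chromosome 19. Fads1 was at 248, 241 and 234 CPM across the Scm libraries and 363, 364 and 378 CPM across the Rcm libraries, and Fads2 at 191, 186 and 188 CPM across the Scm libraries and 315, 313 and 329.8 CPM across the Rcm libraries. Their log2 fold changes were 0.61 ± 0.12 (SE) and 0.76 ± 0.17 (SE), and that of the acyl-CoA synthetase Acsl3 was 0.66 ± 0.16 (SE), with edgeR adjusted p of 0.0104, 0.0186 and 0.0321. Fads1 and Fads2 are also regulated with sterol synthesis by SREBP. Of 13 retinoid genes, 2 rose. Stra6, the cell-surface receptor of retinol-binding protein, was at 0.642, 0.485 and 0.550 CPM across the Scm libraries and 3.80, 4.46 and 3.81 CPM across the Rcm libraries, and Aldh1a1, which makes retinoic acid, at 2.89, 3.33 and 3.02 CPM across the Scm libraries and 10.9, 14.6 and 12.1 CPM across the Rcm libraries. Their log2 fold changes were 2.82 ± 0.41 (SE) and 2.03 ± 0.24 (SE), while the list had 7 negative and 6 positive values and a median of -0.02.

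The 6 ferroptosis genes named whatever their change were not DEGs in the edgeR fit of 18 libraries. Gpx4 was at 108, 124 and 119 CPM across the Scm libraries and 128, 129 and 125 CPM across the Rcm libraries, with a fitted log2 fold change of 0.12 with a 95% interval of -0.05 to 0.29 (edgeR adjusted p = 0.474). Its pseudogene Gpx4-ps2 shares 733 bases at 99.7% identity. Slc7a11 was at 30.4, 47.4 and 54.8 CPM across the Scm libraries and 50.9, 53.8 and 17.5 CPM across the Rcm libraries, with overlapping groups and an interval of -0.96 to 0.71, so that at this spread a change of either sign up to the fold threshold was not detectable. Rcm replicate 3 held the lowest value of Slc7a11. The lipid synthetase Acsl4 changed by 0.26 (interval -0.01 to 0.53) and Aifm2, which encodes FSP1, by 0.17 (interval -0.07 to 0.40). Tfrc, the transferrin receptor, was at 321, 317 and 332 CPM across the Scm libraries and 247, 228 and 202 CPM across the Rcm libraries, and its log2 fold change of -0.52 had an edgeR adjusted p of 0.0476 but did not reach the fold threshold. Scd1, which makes monounsaturated fatty acids, was at 283, 257 and 272 CPM across the Scm libraries and 439, 444 and 409 CPM across the Rcm libraries, with a fitted log2 fold change of 0.67 with an edgeR adjusted p of 0.0673. The groups of Scd1, Gpx4, Aifm2 and Tfrc did not overlap, as for 23.9% of all genes tested. Scd1 passed with DESeq2 (adjusted p = 0.0212) and with edgeR on the 6 libraries alone (adjusted p = 0.00218).

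Iron, selenium and cystine lists each held 1 DEG, beside 2.3% of all genes, so that the calls are of single genes. At an unadjusted edgeR p under 0.05 were 6 of 19 iron genes, 11 of 19 selenoproteins and 1 of 14 cystine and glutathione genes. That share was not counted over all genes. DESeq2 on 18 libraries called 2 selenoproteins higher and edgeR on the 6 libraries alone 3. Without Rcm replicate 3 edgeR called 1 higher and 1 lower. Of 19 iron genes, the ferroxidase ceruloplasmin (Cp) rose, with 13.6, 12.3 and 15.1 CPM across the Scm libraries and 35.9, 42.1 and 25.9 CPM across the Rcm libraries (log2 fold change 1.34), and of 19 selenoproteins Selenow rose, with 52.5, 86.5 and 61.7 CPM across the Scm libraries and 145, 166 and 178 CPM across the Rcm libraries (log2 fold change 1.29 ± 0.17 (SE), edgeR adjusted p = 0.000435). Their list medians were 0.11 and 0.13. Of 14 genes of cystine import and glutathione the DEG was Chac1, and the median was 0.04.

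Some complement and inflammatory genes rose outside the interferon list in the edgeR fit of 18 libraries. Of 11 complement and prostaglandin genes, C3 (0.97), C1ra (0.99) and C1s1 (1.27) rose, with a median of 0.38. C3, the central complement protein, was at 25.7, 25.5 and 25.9 CPM across the Scm libraries and 48.5, 48.3 and 54.2 CPM across the Rcm libraries (edgeR adjusted p = 0.000496). C1ra is 97.9% identical to C1rb and C1s1 96% identical to C1s2, so that their counts are uncertain. The call of C1ra was lost in 7 of 18 alternative analyses and that of C1s1 in 5, while C3 passed in all 18. Of 21 cytokine, chemokine and NF-kB genes, 4 rose, of which Ccl5 and Cxcl10 belong to the interferon list. The others were the chemokine Cxcl1 (1.11) and the pentraxin Ptx3 (0.90), and the median was 0.01. Without Rcm replicate 3 the 4 became 2, and Cxcl1 and Ptx3 lost the call there. Each of these genes lost it in 9 of 18 alternatives, including all 6 in which a library was left out. Hlf, a clock-output factor (1.51), was the DEG of 17 clock genes, 14 of them negative with a median of -0.18. Hlf was low, at a mean of 0.936 CPM in Scm and 2.7 CPM in Rcm. The peptide Adm (1.77) was the DEG of 33 glycolysis and hypoxia genes, 24 of them negative with a median of -0.13. Of 16 glucocorticoid-responsive genes Angptl4 was the DEG, and the median was -0.12.

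In 16 lists edgeR called no gene in the fit of 18 libraries without a block. At an unadjusted p under 0.05 the numbers were 4 of 14 for the IGF system, 0 of 27 for DNA replication, 5 of 20 for mitosis, 7 of 25 for p53 targets, 4 of 27 for NRF2 targets and 2 of 21 for radical-trapping genes. They were 1 of 15 for ER stress, 3 of 10 for heat shock, 0 of 7 for LXR targets, 2 of 12 for thyroid hormone, vitamin D and aryl hydrocarbon receptor genes and 3 of 19 for metallothioneins and zinc transporters. DESeq2 called 2 of the thyroid, vitamin D and aryl hydrocarbon receptor list, 1 each of the IGF, p53 and NRF2 lists and 0 of the other 12. With edgeR on the 6 libraries alone 2 of the p53 and 2 of the thyroid, vitamin D and aryl hydrocarbon receptor list passed. Without Rcm replicate 3 edgeR called 2 of the p53 list and 1 each of the IGF, NRF2 and ER stress lists. The medians of the 11 lists so far ran from -0.14 for p53 targets to 0.20 for the IGF system.

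Of 24 Hox genes, which mark the body position of fibroblasts, 22 were positive and 2 negative, with a median of 0.50, 8 at an unadjusted p under 0.05 and 0 DEGs by edgeR or DESeq2 on 18 libraries. With a replicate block in the edgeR fit 1 Hox gene rose. Over all genes tested 51.9% were positive. Without Rcm replicate 3 the Hox median was 0.35. The 13 mitochondrially encoded genes were all positive, with a median of 0.29 (3 at an unadjusted p under 0.05), and without Rcm replicate 3 the median was 0.47 and 2 passed. Of 40 nuclear respiratory chain genes 35 were negative (median -0.08, 1 at an unadjusted p under 0.05), and of 80 ribosomal protein genes 64 were negative (median -0.15, 5 at an unadjusted p under 0.05), of which 2 fell without Rcm replicate 3. The 32 replication-dependent histone genes had a median of -0.05, with 0 at an unadjusted p under 0.05.

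Some DEGs lay next to each other on the chromosomes. Of 15339 pairs of tested genes adjacent on GRCm38, 48 were both DEGs in the same direction, and 15 of these lay outside the interferon and sterol lists. They included Fads1 and Fads2, Adamts1 and Adamts5, C1ra and C1s1, and Notum and Notumos. Aldh1a7, next to Aldh1a1 and outside the rule for naming, also rose, by 1.61. The exonic length was a median of 4703 bases for the 168 higher DEGs outside the lists and 3682 for the 97 lower DEGs, beside 3799 for all genes tested.

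The exchanged cultures gave a comparison that shares no library with steady culture. S-Rcm and R-Scm at the same time differ in the serum the cells were in as Rcm and Scm do, while the serum they came from is the opposite. S-Rcm 24 h against R-Scm 24 h gave 10 DEGs of 15381 (0.065%), and at 12 h 405 (2.63%). R-Scm 24 h replicate 1 stood apart, with Col3a1 at 714 CPM where the other libraries of its group had 200 and 223 CPM, and without it 125 genes were DEGs at 24 h. The genes are described by direction and median, beside 50.3% positive values at 24 h and 51.1% at 12 h over all genes tested.

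The classes of DEG differed in their direction in the exchanged cultures. All 15 sterol DEGs were positive at 24 h, with a median of 0.62, and 14 of 15 at 12 h. Of the 74 interferon DEGs, 72 were negative at 24 h, with a median of -0.91 (-0.27 without R-Scm 24 h replicate 1), and at 12 h all 74 were negative, 62 of them DEGs in that direction. Of the 168 other DEGs higher in Rcm, 96 were positive at 24 h, and 69 at 12 h, with a median of -0.15. Their median at 24 h was 0.08, and its sign depended on single libraries: it was 0.25, 0.0016 and -0.04 without R-Scm 24 h replicate 1, 2 and 3, and 0.0065 without S-Rcm 24 h replicate 1. The 168 include Ddx60, Ifi27l2a, Gvin1, Gm4070 and Rnf213, which are known to be induced by interferon. At 12 h these had log2 fold changes of -2.39, -2.71, -2.47, -2.72 and -1.04. How many more of the 168 are interferon-induced was not counted, and their part in these medians was not tested. Of the 97 lower DEGs, 73 were negative at 24 h, with a median of -0.14 (-0.07 without R-Scm 24 h replicate 3), and 48 at 12 h, with a median of 0.01. At 24 h 2 of the 168 were DEGs in the direction of steady culture (Angptl4 and Gm3571, the latter named for this count after its value was seen), and of the 97 lower DEGs 1 was (Dynap).

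Angptl4 and Dynap differed in the direction of steady culture. Angptl4 was at 22.5, 34.6 and 40.9 CPM in S-Rcm 24 h and 11.2, 15.3 and 12.7 CPM in R-Scm 24 h, with a fitted log2 fold change of 1.32 (edgeR adjusted p = 0.0115). Dynap was at 308, 257 and 254 CPM in S-Rcm 24 h and 391, 498 and 399 CPM in R-Scm 24 h, with a fitted log2 fold change of -0.65 (edgeR adjusted p = 0.0227). Neither gene overlapped between these groups, and the share of all genes without overlap was not counted for this comparison. Cpt1a had 0.75 at 24 h (edgeR adjusted p = 0.0828) and passed at 12 h with 0.76 (edgeR adjusted p = 0.00839). Id2 had -0.40 at 24 h (edgeR adjusted p = 0.395) and -0.51 at 12 h (edgeR adjusted p = 0.0346), short of the fold threshold, and Id4 had -0.72 (edgeR adjusted p = 0.0828) and passed at 12 h with -0.95 (edgeR adjusted p = 0.00225).

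**Figure D3:**
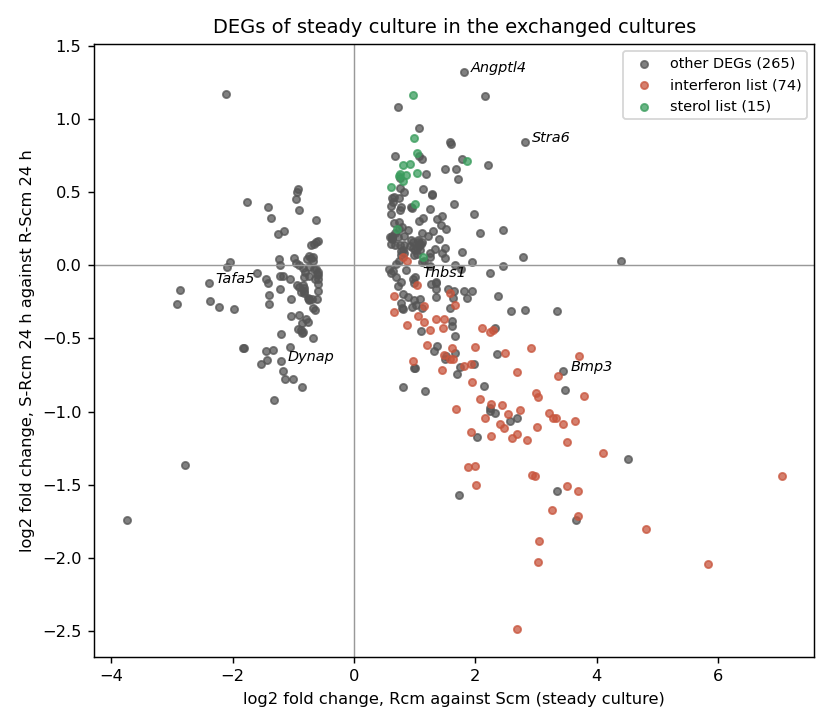
Log2 fold change in S-Rcm 24 h against R-Scm 24 h (vertical) over that in Rcm against Scm (horizontal) for the 354 DEGs of steady culture, with a point for each gene. The 15 sterol genes (green) lie above 0, 72 of the 74 interferon genes (red) lie below 0, and the other 265 DEGs (grey) lie on both sides.

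Other genes differed between the comparisons. The difference of log2 fold changes, steady culture minus exchanged cultures at 24 h, passed the same thresholds for 144 genes (0.936% of 15381), among them 40 of the 168 higher and 15 of the 97 lower DEGs outside the lists, 68 of the 74 interferon and 0 of the 15 sterol DEGs. The steady values that chose these genes enter that difference. Tafa5 was lower in Rcm than in Scm but at 5.96, 5.98 and 6.77 CPM in S-Rcm 24 h and 7.07, 6.06 and 7.19 CPM in R-Scm 24 h, with overlapping groups and a log2 fold change of -0.12. The difference was -2.28 (edgeR adjusted p = 0.000117). Aldh1a1 was opposite in sign at 24 h (-1.17, edgeR adjusted p = 0.0829) and fell at 12 h (-1.52, edgeR adjusted p = 0.00317), and its difference was 3.20 (edgeR adjusted p = 0.000117). Thbs1 was at 2184, 1330.1 and 1356 CPM in S-Rcm 24 h and 1735, 1704 and 1716 CPM in R-Scm 24 h, above all steady Scm libraries in both, with a log2 fold change of -0.08. Col3a1 was at 675, 542 and 572 CPM in S-Rcm 24 h and 714, 199.7 and 223 CPM in R-Scm 24 h, with R-Scm 24 h replicate 1 the highest of these 6 libraries.

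**Figure D4:**
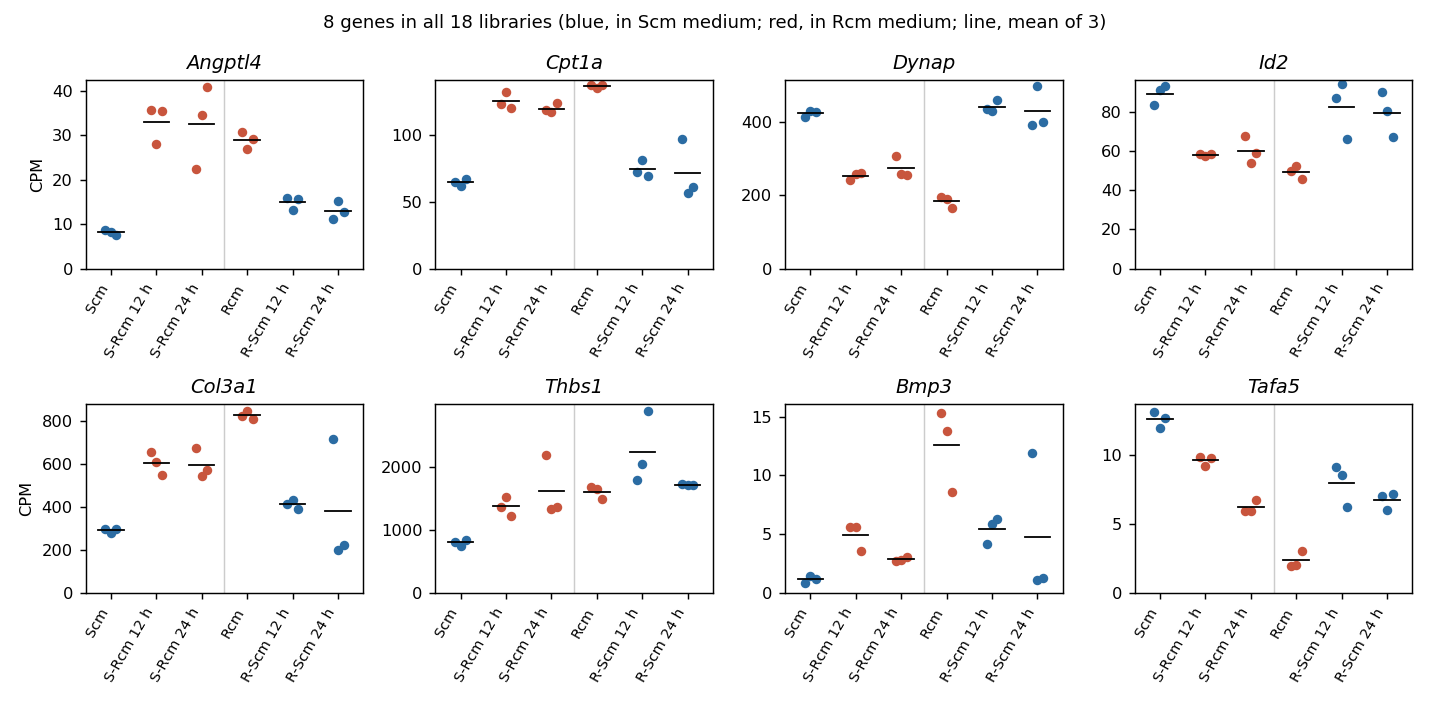
CPM of 8 genes in all 18 libraries, with a point for each library and a line at the mean of each group of 3 (blue, groups in Scm at harvest, and red, groups in Rcm at harvest). Angptl4 is at least 22.5 CPM in every library in Rcm and at most 15.8 CPM in every library in Scm, whereas Thbs1 is lowest in steady Scm and at least 1223 CPM in the libraries of the other 5 groups.

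Of the genes named by size, the largest rise and the largest fall, Ndor1 and Nnt, rested on reads split between identifiers of the same symbol. Nnt, the mitochondrial transhydrogenase that makes NADPH, has 2 identifiers in the count table that overlap by 3339 exonic bases on the same strand (chr13:119335448-119408997, minus strand for the called ENSMUSG00000025453). This identifier held 47.6, 37.7 and 40.4 CPM across the Scm libraries and 6.17, 5.59 and 4.88 CPM across the Rcm libraries, with a fitted log2 fold change of -2.92 ± 0.62 (SE) (edgeR adjusted p = 0.0206). Summed over both identifiers, Nnt came to 114 ± 4.60 CPM for Scm and 122 ± 2.07 CPM for Rcm (SD, n = 3, exact two-sided permutation p = 0.1, the smallest that 3 against 3 allows). The share of the called identifier was 43.6%, 32.3% and 34.5% in Scm, 46.8% in S-Rcm 12 h replicate 2, and between 2.72% and 7.52% in the other 14 libraries. With counts summed over identifiers the log2 fold change of Nnt was 0.10.

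Ndor1, a flavin oxidoreductase that passes electrons to iron-sulfur proteins, has 3 identifiers, and 99.9% of the exonic bases of the called ENSMUSG00000115018 (chr2:25244819-25246863, minus strand) lie in another of them. The called identifier held 0.0535, 0.901 and 1.17 CPM across the Scm libraries and 13.7, 14.3 and 14.8 CPM across the Rcm libraries, with a fitted log2 fold change of 4.40 ± 0.82 (SE) (edgeR adjusted p = 0.00867). Summed over all identifiers Ndor1 came to 33.8 ± 1.68 CPM for Scm and 33.8 ± 1.81 CPM for Rcm (SD, n = 3, exact two-sided permutation p = 1). The share of the called identifier was 0.158% to 3.30% in Scm and 2.08% in R-Scm 12 h replicate 2, and 35.9% to 45.2% in the other 14 libraries. Both calls are thus of single identifiers, and they were not made on the summed counts, where the edgeR adjusted p was 0.631 for Nnt and 0.998 for Ndor1. Of 16 symbols with several identifiers and at least 3 CPM in every library, 7 had a share that ranged over more than 25 percentage points.

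**Figure D5:**
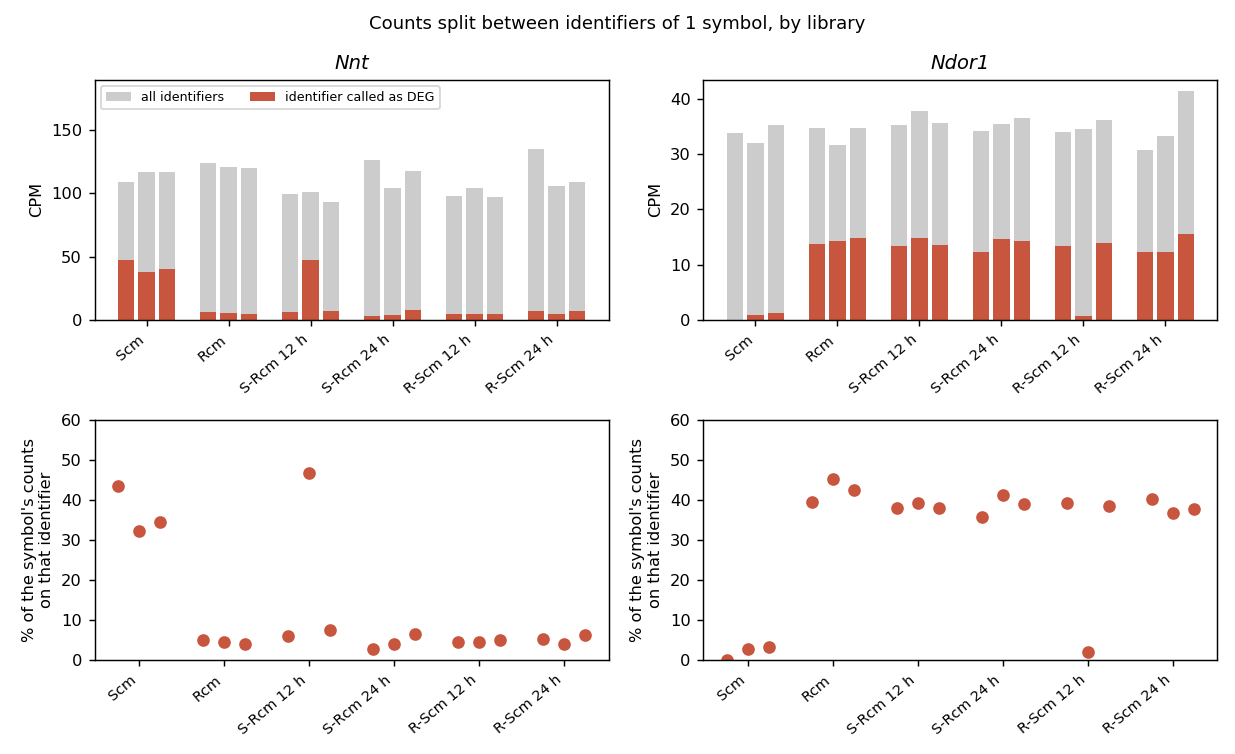
Counts of Nnt (left) and Ndor1 (right) by library, as CPM summed over all identifiers (grey bars) and on the identifier called as DEG (red bars), with that identifier's share in percent below. The share differs between Scm and Rcm, from 32.3% to 43.6% against 4.05% to 4.96% for Nnt, while the grey bars have means of 114 and 122 CPM.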

How the data were processed

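RNA of MEFs was extracted with the RNeasy mini kit and sequenced as paired-end reads on NovaSeq, and the authors aligned the reads with HISAT2 to GRCm38. The deposited values are raw read counts for 55487 genes in 18 libraries. The counting tool and its use of strand are not given in the sources used here. Identifiers were matched to GENCODE vM21 (99.5%), also of GRCm38.

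Counts were filtered with filterByExpr (15381 genes kept), scaled by TMM and fitted with the edgeR 4.0.16 quasi-likelihood model on all 18 libraries (R 4.3.3), with groups from the titles. A DEG passed 0.05 in the adjusted p and 0.58 in the size of its log2 fold change. Values are CPM with TMM factors, and SE is the log2 fold change over the root of F. In simulated counts for Rcm against Scm (15191 genes), 65.7% of changes of log2 size 1 and 92% of size 2 were recovered, with 6 false calls. The simulation held no library that stood apart from its group, as Rcm replicate 3 did. It thus does not measure recovery in the real counts. Alternatives used RLE, other filters and thresholds, DESeq2 1.42.0, limma 3.58.1, a replicate block and each library left out. Near-identical transcripts came from blastn 2.17.0.

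The members and gene lists were chosen with earlier results of these data known. Named were the 12 largest rises and falls among DEGs with at least 2 CPM and no overlap, the 5 most abundant DEGs in each direction, both without sterol and interferon genes, every DEG of a list, and 6 ferroptosis genes. Reads carry no molecular identifiers.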

Additional observations from a re-analysis of the deposited data

Results flagged for a closer look

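Of the 34 genes named for the size of their change or their abundance, 13 differed between steady culture and the exchanged cultures, in a test of the difference itself (log2 fold change in Rcm against Scm minus that in S-Rcm 24 h against R-Scm 24 h, edgeR quasi-likelihood test on 18 libraries). Since the genes were chosen for large changes in steady culture, the difference contains the values that chose them. Among matrix and secreted proteins the difference was 3.66 for Apod (edgeR adjusted p = 0.0349), 3.14 for Prelp (edgeR adjusted p = 0.0489) and 1.09 for Thbs1 (edgeR adjusted p = 0.0498). The protocadherin Pcdh17 had 2.76 (edgeR adjusted p = 0.000783).

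Genes known as interferon-induced had positive differences, 4.34 for Ddx60, 3.65 for Gm4070, 3.33 for Gvin1 and 1.91 for Rnf213, with edgeR adjusted p between 0.00122 and 0.00927. The reads of Gm4070 and Gvin1 cannot be told apart. Negative differences were found for Tafa5 (-2.28), Cckar (-2.13), Hey1 (-2.08), Slc6a4 (-2.07) and Notumos (-2.20), with edgeR adjusted p between 0.000117 and 0.0218. In S-Rcm 24 h against R-Scm 24 h the log2 fold changes of these 5 lay between -0.25 and 0.43. R-Scm 24 h replicate 1, which stood apart from its group, enters each difference, and its part in them was not tested.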

How the results depend on the processing

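The 354 DEGs (257 higher, 97 lower) became 562 (388 and 174) with DESeq2 on the 6 libraries alone and 170 (131 and 39) at an adjusted p under 0.01. The lower DEGs were 146 with DESeq2 on 18 libraries and 153 with the adjusted p alone. Leaving out a library gave 178 to 574 DEGs, 130 to 363 higher (156 at most without another library than Rcm replicate 3) and 38 to 211 lower: 196, 178 and 190 without Scm replicate 1, 2 and 3, and 195, 191 and 574 without Rcm replicate 1, 2 and 3. The DEGs of S-Rcm 24 h against R-Scm 24 h were 51 with DESeq2, 0 at an adjusted p under 0.01, 4 and 0 when S-Rcm 24 h replicate 2 or 3 was left out, and 125, 2 and 0 for R-Scm 24 h replicate 1, 2 and 3. Those of S-Rcm 12 h against R-Scm 12 h were 117 at an adjusted p under 0.01, 643 with the adjusted p alone, and 133 to 473 without a library (133 and 168 for S-Rcm 12 h replicate 1 and 3, 136 for the third replicate of R-Scm 12 h). The median of the interferon DEGs at 24 h was -0.91 and ran from -1.14 to -0.27 with a library left out (-0.27 for R-Scm 24 h replicate 1), and that of the sterol DEGs at 12 h ran from 0.64 to 0.79 (0.79 for S-Rcm 12 h replicate 2). These exchange leave-outs and the summed counts were chosen after seeing the data. The causes of these shifts were not tested. Reversed values were those of Nnt (0.10) and Ndor1 (-0.00039) with counts summed over identifiers, and of Slc7a11, which ran from -0.37 to 0.23 with a library left out (0.06 for Scm replicate 3 and 0.23 for Rcm replicate 3). Of 82 DEGs named, 35 stayed DEGs in all alternatives that gave them a value. Between Scm and Rcm libraries of the same replicate number the correlations of deviations were 0.12, -0.05 and -0.06. They cannot settle whether the numbers pair the samples, and the exchanged groups were not examined. In S-Rcm 24 h, R-Scm 12 h and R-Scm 24 h the deposited columns bear other numbers than the titles, whose numbers the block used. The replicate block gave 342 DEGs in 18 libraries and 257 in 6.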
